A study of Rattus norvegicus with 9 samples.

Results

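The genes that make and package the inhibitory transmitter GABA, and the calcium-binding proteins and neuropeptides that mark classes of inhibitory interneurons, were followed in rat brain tissue. They are 9 named genes, taken by their Ensembl IDs: Gad1 (ENSRNOG00000000007), Gad2 (ENSRNOG00000018200), Slc32a1 (ENSRNOG00000015393), Pvalb (ENSRNOG00000006471), Calb1 (ENSRNOG00000007456), Sst (ENSRNOG00000001837), Npy (ENSRNOG00000046449), Vip (ENSRNOG00000018808) and Cck (ENSRNOG00000019321). All 9 were found among the 32883 genes of the table. All 9 also passed the expression minimum (1 FPKM in 3 of 9 libraries) that left 15051 genes for testing, and none depended on 1 group for this, since the lowest value of any of them in any library was 6.23 FPKM (Vip in PN 6A). FPKM is the number of fragments scaled to transcript length and to sequencing depth, so levels of different genes can be set side by side.

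There were 3 groups with 3 libraries each: rats with a sham operation (sham 4B, 5B and 9A), rats with middle cerebral artery occlusion, a surgical stroke model, and no stated treatment (MCAO 3B, 6B and 7A), and rats with the same occlusion given Panax notoginseng, a medicinal root (PN 3A, 6A and 7A). The series concerns ischaemia with reperfusion. The sources used here do not give the strain, age, sex, brain region, hemisphere, dose or sampling time. They also do not say if each library is an animal of its own, and p-values therefore measure only the spread between libraries, which may be technical. The column names of PN 3A and sham 9A start unlike those of the other libraries of their groups, for a reason the labels do not state. The code 7A occurs in both MCAO and PN. The columns of MCAO 7A and PN 7A were therefore assigned only by a column-name start shared with another library of the group.

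GABA is made from glutamate by glutamate decarboxylase, whose isoforms are encoded by Gad1 and Gad2, and is loaded into synaptic vesicles by the transporter encoded by Slc32a1. These genes are active in inhibitory neurons of all kinds, in the forebrain both in interneurons and in the projection neurons of the striatum. The markers divide interneurons: parvalbumin (Pvalb) marks fast-spiking basket and chandelier cells, somatostatin (Sst) and neuropeptide Y (Npy) mark partly shared populations of dendrite-targeting and long-range cells, and vasoactive intestinal peptide (Vip) marks cells that contact other interneurons. Cholecystokinin (Cck) and calbindin (Calb1) are found in interneurons but also in excitatory or projection neurons. In bulk tissue, fewer cells of a type and less RNA per cell cannot be told apart.

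For 7 of the 9 genes a promoter window was found by symbol in the RefSeq table of the GRCr8 build (250 bases before and 50 after an annotated start), with no entry matched for Calb1 and Cck. The 250 bases before the start are shown for the pairs of genes with the highest Pearson's r over the libraries. These were Gad2 with Slc32a1 (0.941, but 0.777 without sham 5B) and Sst with Npy (0.934). By Spearman's rho, a correlation of ranks, Pvalb with Vip and Pvalb with Cck ran closer. Each window is written 5′ to 3′ on the strand of the gene with CG dinucleotides in capitals. Their positions are chr17:89671468-89671717 (+) for Gad2, chr3:167686995-167687244 (+) for Slc32a1, chr11:90461296-90461545 (+) for Sst and chr4:80211861-80212110 (+) for Npy.
Gad2: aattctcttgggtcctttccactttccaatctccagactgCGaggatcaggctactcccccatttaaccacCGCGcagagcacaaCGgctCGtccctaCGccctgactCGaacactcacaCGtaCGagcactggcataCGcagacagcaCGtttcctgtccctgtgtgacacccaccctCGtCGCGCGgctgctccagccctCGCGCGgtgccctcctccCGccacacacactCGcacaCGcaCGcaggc
Slc32a1: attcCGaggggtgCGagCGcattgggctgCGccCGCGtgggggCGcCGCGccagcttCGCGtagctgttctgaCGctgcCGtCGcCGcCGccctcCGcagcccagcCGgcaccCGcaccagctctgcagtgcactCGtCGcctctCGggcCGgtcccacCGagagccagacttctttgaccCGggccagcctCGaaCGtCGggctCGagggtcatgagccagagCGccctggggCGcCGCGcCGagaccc
Sst: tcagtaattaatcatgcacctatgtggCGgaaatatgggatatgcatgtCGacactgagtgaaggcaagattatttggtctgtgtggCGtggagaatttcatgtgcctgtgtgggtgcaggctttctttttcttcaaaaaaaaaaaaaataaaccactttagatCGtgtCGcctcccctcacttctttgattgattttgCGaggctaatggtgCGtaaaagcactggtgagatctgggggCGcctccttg
Npy: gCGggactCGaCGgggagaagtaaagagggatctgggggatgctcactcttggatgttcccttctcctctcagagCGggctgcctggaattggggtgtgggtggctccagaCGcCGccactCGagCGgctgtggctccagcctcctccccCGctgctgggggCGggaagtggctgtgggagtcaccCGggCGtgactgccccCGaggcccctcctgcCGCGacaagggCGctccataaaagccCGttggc

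CG dinucleotides were dense in the synthesis genes' windows, with 22 in Gad2 and 34 in Slc32a1, against a median of 5 over all 33469 promoters of this length. Only 3.03% of promoters held as many as Slc32a1 and 13.7% as many as Gad2. Npy held 17 and Sst 8, and the window of Vip, not shown, held 2. Gad1 held 23 and Pvalb 21, but for these 2 genes and Vip the table's start is not the outermost annotated start of the gene. Among the 7 genes, the full cyclic AMP response element TGACGTCA, searched on both strands over the whole 300 bases, was found in Sst alone, where 1.83% of all promoters hold it. It begins at base 3 from the annotated start, counting the start as base 1. Annotated starts were not checked against measured ones, so the place of the element relative to the start of transcription is not shown. The element is in capitals within the 30 bases chr11:90461537-90461566 (+).
Sst element: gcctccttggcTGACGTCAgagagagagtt

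The shorter element TGACG, which lies inside the full one, was found in Slc32a1, Pvalb, Sst and Vip (21.2% of all promoters), and TATAAA in Gad1 and Vip (14.2%). The E-box CACGTG (6.42%) was found in none of the 7. Gad2 and Npy held none of these motifs, so the pair Gad2 and Slc32a1 and the pair Sst and Npy could share none. A match of letters is a description and not a shown binding site.

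Averaged over the 9 libraries, Cck was the most abundant of the 9 genes and Vip the least. Only 122 of the 15051 genes tested had a higher mean than Cck (313 FPKM) and 327 a higher mean than Sst (169 FPKM). Then came Pvalb (102 FPKM), Gad1 (66.5 FPKM), Gad2 (52.5 FPKM), Calb1 (51.4 FPKM), Npy (48.7 FPKM), Slc32a1 (32.8 FPKM) and Vip (13.2 FPKM), with 6464 genes above Vip. Gad2, Calb1 and Npy lay closer to each other than their SDs within groups. The 9 genes also varied widely between libraries. The highest library exceeded the lowest by 3.18-fold (Vip) to 6.51-fold (Pvalb), with a median of 4.55-fold, against a median of 1.98-fold over the 7697 genes with a mean of at least 10 FPKM that no library lists at 0.

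**Figure D1:**
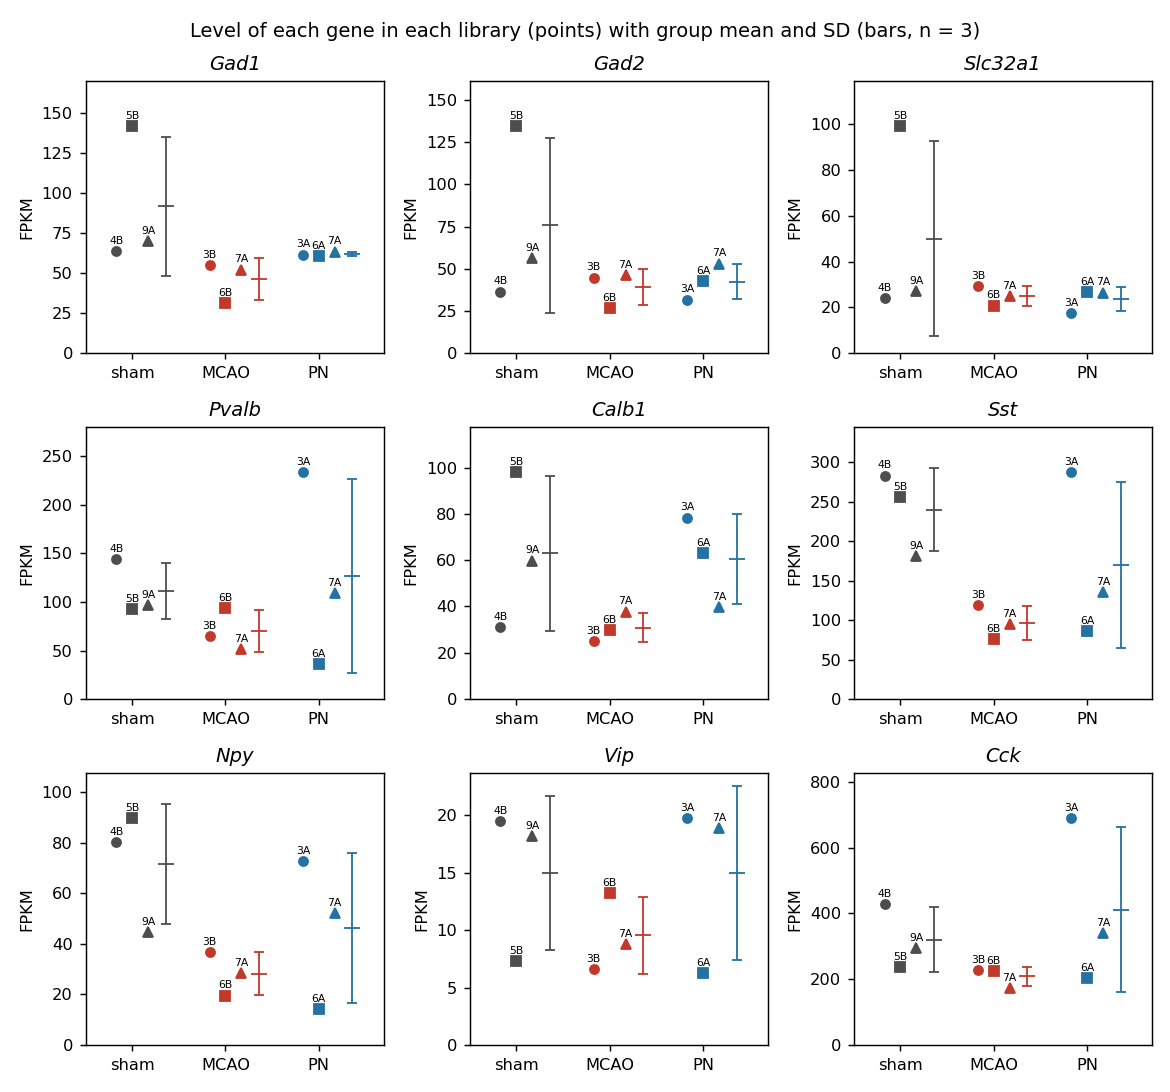
FPKM of each of the 9 genes (vertical axes, linear, from 0) in each library, by group (horizontal axes); points carry the sample code and bars show the group mean ± SD (n = 3). Sham 5B stands far above all other libraries for Gad1, Gad2 and Slc32a1, PN 3A is highest for Pvalb and Cck, and the MCAO libraries lie below all sham libraries for Gad1, Sst, Npy and Cck.

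Extremes fell on few libraries. Sham 5B was the highest of the 9 libraries for 5 of the 9 genes (Gad1, Gad2, Slc32a1, Calb1 and Npy), while it was highest for 10.01% of all genes tested. PN 3A was highest for the other 4 (Pvalb, Sst, Vip and Cck), and for 22.0% of all genes. Neither is a result about a group, since each is 1 library. MCAO 6B was lowest for 3 of the 9 genes (Gad1, Gad2 and Sst) and for 16.2% of all genes tested, and PN 6A for 3 (Pvalb, Npy and Vip) and for 7.21%.

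The synthesis and packaging genes were each highest in sham 5B. Gad1 was at 63.5, 141 and 69.9 FPKM in the sham libraries (4B, 5B, 9A). It was at 55.0, 31.1 and 52.2 FPKM in the MCAO libraries (3B, 6B, 7A). In PN 3A, 6A and 7A it was at 61.5, 60.6 and 63.4 FPKM. The PN libraries lay above all MCAO libraries, by a margin of 60.6 to 55.0 FPKM. They lay below all sham libraries in the deposited values only by 63.43 (PN 7A) to 63.53 FPKM (sham 4B), and after scaling to equal sums of FPKM these groups overlapped. Group means were 91.6 ± 43.2, 61.8 ± 1.46 and 46.1 ± 13.1 FPKM in the order sham, PN and MCAO (SD, n = 3 each). The PN libraries lay close together, from 60.6 to 63.4 FPKM.

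Gad2, the isoform tied to synaptic vesicles, was at 36.5, 134 and 56.4 FPKM in the sham libraries (4B, 5B, 9A) and at 44.8, 26.9 and 46.3 FPKM in the MCAO libraries (3B, 6B, 7A). In PN 3A, 6A and 7A it was at 31.8, 42.5 and 53.1 FPKM. All 3 groups overlapped. Slc32a1, the vesicular transporter gene, was at 23.9, 98.9 and 27.0 FPKM in the sham libraries and at 29.3, 20.8 and 24.99 FPKM in the MCAO libraries. In the PN libraries it was at 17.5, 26.6 and 26.5 FPKM. Apart from sham 5B, the libraries of the 3 groups interleaved. Sham 5B exceeded the next library 2.02-fold for Gad1, 2.38-fold for Gad2 and 3.37-fold for Slc32a1, and an excess of at least 1.5-fold over all other libraries was found there for 1.75% of all genes tested. For Calb1 its excess was 1.25-fold and for Npy 1.12-fold.

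Calbindin, a calcium buffer, shared the high value of sham 5B in part. Calb1 was at 31.2, 98.0 and 59.8 FPKM in the sham libraries (4B, 5B, 9A) and at 25.1, 29.9 and 37.8 FPKM in the MCAO libraries (3B, 6B, 7A). In PN 3A, 6A and 7A it was at 78.3, 63.1 and 39.7 FPKM. The lowest PN library was above the highest MCAO library by a narrow margin, which was lost with median-of-ratios scaling. Sham spanned the PN range, while MCAO 3B and 6B lay below all sham libraries and MCAO 7A lay above sham 4B. Parvalbumin, the calcium buffer of fast-spiking cells, was at 144, 92.8 and 96.6 FPKM in the sham libraries and at 64.8, 93.4 and 51.5 FPKM in the MCAO libraries. In the PN libraries Pvalb was at 233, 35.8 and 109 FPKM, so that PN 3A and PN 6A held the highest and the lowest value of all 9 libraries.

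Among the neuropeptides, somatostatin showed the clearest separation of sham from MCAO. Sst was at 283, 256 and 181 FPKM in the sham libraries (4B, 5B, 9A) and at 119, 76.4 and 94.6 FPKM in the MCAO libraries (3B, 6B, 7A), with no overlap. In PN 3A, 6A and 7A it was at 287, 85.6 and 136 FPKM, from within the MCAO range to above all sham libraries. Neuropeptide Y had the same order of group means, with sham highest, then PN and then MCAO. Npy was at 80.3, 89.8 and 44.6 FPKM in the sham libraries and at 36.6, 19.5 and 28.5 FPKM in the MCAO libraries. In the PN libraries it was at 72.8, 14.2 and 52.1 FPKM, and PN 6A was the lowest of the 9.

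Vip and Cck were high in PN 3A and PN 7A and low in PN 6A. Vip was at 19.5, 7.29 and 18.2 FPKM in the sham libraries (4B, 5B, 9A) and at 6.63, 13.2 and 8.79 FPKM in the MCAO libraries (3B, 6B, 7A). In PN 3A, 6A and 7A it was at 19.8, 6.23 and 18.9 FPKM, and no group was clear of another. Sham 5B, the highest library for the synthesis genes, was here among the 3 lowest. Cck was at 429, 236 and 294 FPKM in the sham libraries and at 227, 224 and 174 FPKM in the MCAO libraries, which put every MCAO library below every sham library by a narrow margin. In the PN libraries it was at 690.3, 204 and 341 FPKM.

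**Figure D2:**
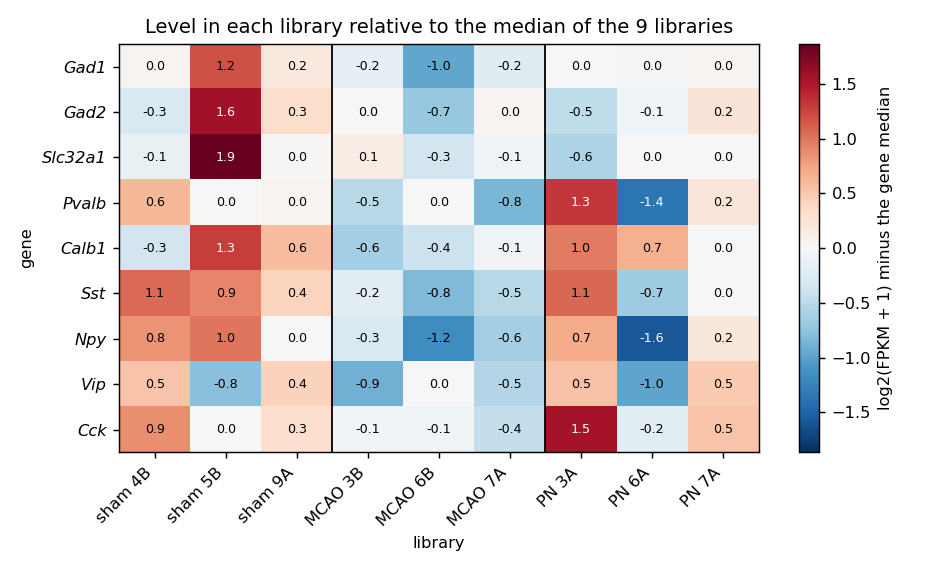
log2(FPKM + 1) of each gene (rows) in each library (columns) minus the gene's median over the 9 libraries, with the value in each cell; lines part sham, MCAO and PN. Sham 5B is high for Gad1, Gad2, Slc32a1 and Calb1 but low for Vip, PN 3A is high for Pvalb, Sst and Cck, and PN 6A is low for Pvalb, Npy and Vip.

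The effect of the occlusion was addressed by setting MCAO against sham. The fitted level of all 9 genes was lower in MCAO, with Sst and Npy at the largest differences, but no gene of the 9 passed the adjusted threshold of 0.05 (limma over all genes tested, adjusted p from 0.356 to 0.687). Of all genes tested 1 passed, or 0.00664%. At an unadjusted p under 0.05 there were 3 of the 9 (Sst, Gad1 and Npy), where 11.1% of all genes tested reached that level. In 4 of the 9 (Gad1, Sst, Npy and Cck) every MCAO library lay below every sham library, against 11.0% of all genes tested. None of the 9 lay above. The median log2 difference of the 9 genes was -0.76 and that of all genes tested -0.01, and 51.7% of all genes tested were below 0.

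Sst averaged 239.8 ± 53.0 FPKM in the sham libraries and 96.6 ± 21.3 FPKM in the MCAO libraries (SD, n = 3 each). On the log2(FPKM + 1) scale MCAO differed by -1.30 (standard error 0.39; limma, adjusted p = 0.356). Npy averaged 71.6 ± 23.8 and 28.2 ± 8.54 FPKM in the same groups, and its log2 difference was -1.30 (standard error 0.54; limma, adjusted p = 0.434). Both were lower in 3 of 3 MCAO libraries. Gad1 differed by -0.92 (standard error 0.31; limma, adjusted p = 0.375). Cck averaged 319.8 ± 98.9 FPKM in sham against 208 ± 29.95 FPKM in MCAO, and its log2 difference was -0.58 (standard error 0.40; limma, adjusted p = 0.606). Of these 4, the 95% intervals of Sst (-2.19 to -0.41), Gad1 (-1.63 to -0.22) and Npy (-2.50 to -0.09) lay below 0, before any adjustment for the number of genes, and that of Cck (-1.49 to 0.32) did not.

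The size of the difference in the synthesis genes rested on sham 5B. Without that library the log2 difference from sham was -0.57 for Gad1, -0.24 for Gad2 and -0.03 for Slc32a1, in place of -0.92, -0.76 and -0.67, and for Calb1 it was -0.49 in place of -0.88. Sst and Npy were at -1.24 and -1.10 without it, and Vip and Cck moved the other way, to -0.96 and -0.78. Without sham 4B Cck was at -0.35. At an unadjusted p under 0.05 there was 1 of the 9 genes without sham 5B (Sst; limma, adjusted p = 0.673), where 7.12% of all genes tested reached that level. Without MCAO 6B there was also 1, Sst, where 8.97% did. There were 2 without MCAO 7A (Gad1 and Sst; 10.6% of all genes) and 4 without sham 4B (Gad1, Gad2, Calb1 and Sst; 9.15%).

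**Figure D3:**
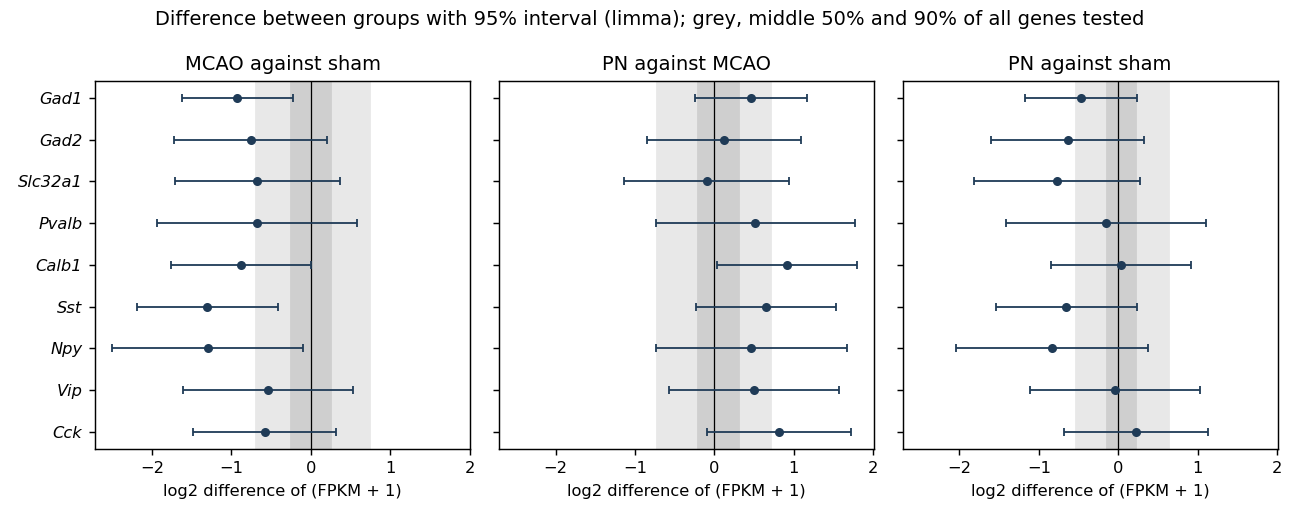
log2 difference of each gene (limma on log2(FPKM + 1); horizontal axis) with its 95% interval (bars), unadjusted for the number of genes, over grey bands that hold the middle 50% and 90% of all genes tested, in 3 panels, for MCAO against sham, for PN against MCAO and for PN against sham. All 9 estimates lie below 0 in the first comparison and 8 of 9 above 0 in the second, and most intervals cross 0.

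PN was compared with MCAO, with which it shares the occlusion, to ask what the root changed. Of the 9 genes, 8 had a higher fitted level in PN, with Calb1 and Cck at the largest differences, and Slc32a1 a lower one. No gene of the 9 passed the adjusted threshold (limma, adjusted p from 0.367 to 0.944). Among all genes tested 1 passed, or 0.00664%. At an unadjusted p under 0.05 there was 1 of the 9, Calb1, where 13.2% of all genes tested reached that level. Every PN library lay above every MCAO library for Gad1 and Calb1, 2 of the 9, against 13.6% of all genes tested, and with median-of-ratios scaling for Gad1 alone. The median log2 difference was 0.50 for the 9 genes and 0.07 for all genes tested, of which 42.9% were below 0.

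Calb1 averaged 60.4 ± 19.5 FPKM in PN against 30.9 ± 6.42 FPKM in MCAO (SD, n = 3 each). On the fitted scale it was 1.88-fold higher, a log2 value of 0.91 (standard error 0.39, interval 0.03 to 1.79; limma, adjusted p = 0.367). Gad1 was higher in 3 of 3 PN libraries, by 0.46 (standard error 0.31; limma, adjusted p = 0.546). The interval of Gad1, -0.25 to 1.16, included 0. The unadjusted p of Calb1, 0.0448 by limma, was above 0.05 under each of the 3 other scalings and without any 1 of MCAO 3B, MCAO 6B, PN 3A, PN 6A or sham 9A. Over all settings tried it ran from 0.0133 (only the 6 libraries compared) to 0.184 (the sample code's letter in the model). The smallest adjusted p by limma for Calb1 was 0.303, without sham 4B. Gad2 and Slc32a1 were near 0, at 0.12 and -0.10, with intervals from -0.85 to 1.08 and from -1.14 to 0.94 that leave room for differences of about 2-fold in either direction. Cck differed by 0.81, Sst by 0.65, Pvalb by 0.52, Vip by 0.50 and Npy by 0.46, each with an interval that included 0.

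The marker genes other than Calb1 depended on which PN libraries were present. PN 3A and PN 7A lay above all MCAO libraries for Pvalb, Sst, Npy, Vip and Cck. PN 6A lay below all MCAO libraries for Pvalb, Npy and Vip and within their range for Sst and Cck. Without PN 6A the log2 differences were 1.22 for Pvalb, 1.05 for Sst, 1.14 for Npy, 0.995 for Vip and 1.23 for Cck. All 5 then reached an unadjusted p under 0.05, as did 18.0% of all genes tested, but none the adjusted threshold (limma, smallest adjusted p = 0.171). Without PN 3A the same genes were at -0.11, 0.18, 0.00, 0.23 and 0.35. Gad1 was at 0.47 without PN 6A and 0.46 without PN 3A, but at 0.20 without MCAO 6B. Calb1 was at 0.85 and 0.70 without PN 6A and PN 3A. Without PN 6A the groups did not overlap for 7 of the 9 genes, all but Gad2 and Slc32a1, where 22.7% of all genes tested were separated in that direction.

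PN was also set against sham. These libraries are the same ones used above, so the 3 comparisons are not independent. No gene of the 9 passed the adjusted threshold (limma, adjusted p from 0.974 to 0.998), and of all genes tested 3 did, or 0.0199%. None of the 9 was at an unadjusted p under 0.05, where 4.25% of all genes tested were. All PN libraries lay below all sham libraries for Gad1 only, with 2.53% of all genes tested in that state, and for none of the 9 after scaling to equal sums. Gad1 was at -0.46 with an interval from -1.17 to 0.24, and at -0.11 without sham 5B.

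The remaining differences from sham depended on single libraries. Npy was at -0.83, Slc32a1 at -0.77, Sst at -0.65 and Gad2 at -0.64, while Pvalb (-0.16), Vip (-0.04), Calb1 (0.03, but -0.0171 and -0.0256 under 2 of the 3 other scalings tried) and Cck (0.23) were closer to 0. Without sham 5B, Slc32a1 was at -0.13 and Gad2 at -0.12, and without PN 6A, Npy was at -0.15 and Sst at -0.25. The median over the 9 genes was -0.46, against 0.04 for all genes tested, of which 44.5% were below 0. Intervals were wide, from -1.54 to 0.23 for Sst and from -2.04 to 0.37 for Npy, so a p above the threshold does not show that PN and sham were alike. Without PN 3A, all 9 genes were below 0, and Sst (-1.12) and Npy (-1.29) were at an unadjusted p under 0.05, where 4.70% of all genes tested were. Without sham 4B these were Gad2 (-1.05) and Slc32a1 (-1.13), where 6.48% of all genes were.

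Side by side, the values of Gad1 were -0.92 for MCAO against sham and 0.46 for PN against MCAO, those of Calb1 -0.88 and 0.91, those of Sst -1.30 and 0.65, and those of Slc32a1 -0.67 and -0.10. The MCAO libraries enter both comparisons, so the values in the second are not independent of those in the first.

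Which genes moved together from library to library was examined over the 9 libraries, for all 36 pairs of the 9 genes on the log2(FPKM + 1) scale. Of the 36 correlations 28 were positive, and Pearson's r ran from -0.489 (Slc32a1 with Vip) to 0.941 (Gad2 with Slc32a1). P-values come from exact permutation of the libraries, two-sided, adjusted over the 36 pairs by the Benjamini-Hochberg method. Values within a library share its scaling and its piece of tissue.

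The peptides Sst and Npy were closely tied, with r = 0.934 (exact permutation p = 0.00043, adjusted 0.00937) and Spearman's rho = 0.900 (exact permutation p = 0.00203, adjusted 0.0243). After the 2 libraries farthest from the median were left out, r was 0.923, and among deviations from the group means it was 0.909, so the tie also held between libraries of a group. Npy stood at 0.166 (PN 6A) to 0.384 (PN 7A) of the level of Sst, a 2.31-fold span, whereas each gene alone spanned 6.32-fold and 3.76-fold.

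Pvalb ran with Cck, with r = 0.903 (exact permutation p = 0.000521, adjusted 0.00937) and rho = 0.933 (exact permutation p = 0.00075, adjusted 0.0135). Their r was 0.911 without the 2 farthest libraries and 0.942 among deviations from group means. Pvalb also ran with Vip, with r = 0.807 (exact permutation p = 0.00405, adjusted 0.0352) and rho = 0.950 (exact permutation p = 0.000353, adjusted 0.0127), and r = 0.743 without the 2 farthest libraries. Together with Sst and Npy, these were the 3 of 36 pairs with an adjusted p under 0.05 by both measures. The share of all other gene pairs with such correlations was not computed, so these ties are not shown to be particular to these genes. The permutation moved libraries across groups, so differences between groups enter these p-values.

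The synthesis genes gave a high r that leaned on sham 5B. Gad2 and Slc32a1 had r = 0.941 (exact permutation p = 0.00192, adjusted 0.0231) and rho = 0.800 (exact permutation p = 0.0138, adjusted 0.0830), and r was 0.766 without the 2 farthest libraries and 0.777 without sham 5B. For Gad1 with Gad2, r was 0.896 (exact permutation p = 0.00489, adjusted 0.0352) and rho 0.617 (exact permutation p = 0.0857, adjusted 0.218). Without the 2 farthest libraries this r was 0.185, so much of that relation rests on those libraries. Without sham 5B alone it was 0.681, and among deviations from the group means, which keep sham 5B, it was 0.914. For Gad1 with Slc32a1, r was 0.818 (exact permutation p = 0.0250, adjusted 0.0817) and rho 0.433 (exact permutation p = 0.250, adjusted 0.450). It too rests largely on those libraries, since r was -0.097 without the 2 farthest, sham 5B and MCAO 6B, and 0.32 without sham 5B alone. Among deviations from the group means, with all libraries kept, r was 0.873.

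**Figure D4:**
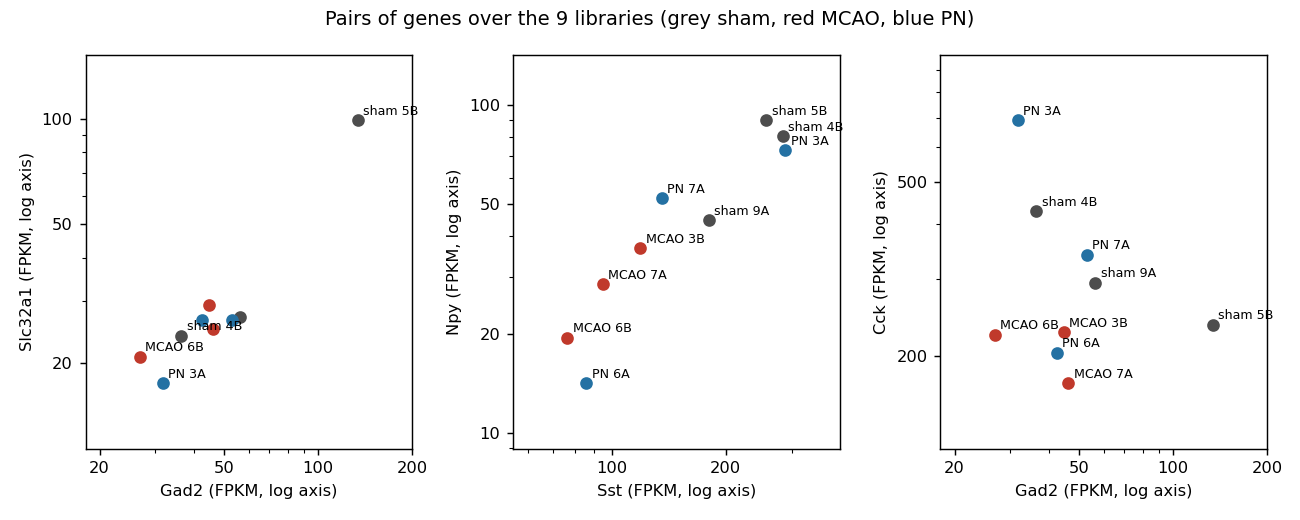
FPKM of 1 gene against another in the 9 libraries (both axes logarithmic, in FPKM; grey sham, red MCAO, blue PN; labels give the sample code, in the left panel for 4 points only). Libraries high in Npy were high in Sst over all 3 groups, sham 5B lies far from the other libraries in Gad2 against Slc32a1, and in Gad2 against Cck sham 5B and PN 3A lie at opposite corners.

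Ratios within a library set the markers against the synthesis genes. The level of Slc32a1 was 0.478 (sham 9A) to 0.772 (MCAO 6B) of that of Gad2, a 1.61-fold span, and Gad2 was 0.517 (PN 3A) to 0.949 (sham 5B) of Gad1. The ratio of Slc32a1 to Gad1 spanned 2.46-fold, that of Gad1 to Sst 3.30-fold and that of Gad1 to Cck 6.72-fold. The widest spans were those of Cck to Gad2 and of Pvalb to Slc32a1. The ratio of Cck to Gad2 ran from 1.76 in sham 5B to 21.7 in PN 3A, a 12.3-fold span. The ratio of Pvalb to Slc32a1 ran from 0.938 in sham 5B to 13.4 in PN 3A. For both of these ratios the extremes were sham 5B and PN 3A, which are also the libraries that held the highest values of single genes.

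Whether a marker differed between groups beyond the synthesis genes was tested on the difference between its log2(FPKM + 1) and the mean of Gad1, Gad2 and Slc32a1 in the same library. For 6 markers and 3 comparisons, 18 tests in all, no groups were free of overlap, and the exact permutation p ran from 0.2 to 1.0 where the smallest possible with 3 against 3 is 0.1 (adjusted p = 1.0 for each). Sst stood 1.42 ± 0.15 above the synthesis genes in MCAO and 1.94 ± 0.91 above them in sham (SD, n = 3 each), a difference of -0.52. Npy stood at -0.34 ± 0.14 in MCAO and at 0.17 ± 0.79 in sham. For Calb1 PN exceeded MCAO by 0.75 and sham by 0.66 on this scale, and by 0.41 and 0.32 without PN 3A. The first was 0.49 without MCAO 3B. In sham the spread was several times that in MCAO for both peptides, and sham 5B, high in the synthesis genes, was the lowest sham library for each. Without sham 5B, sham stood above all MCAO libraries for Sst (2.86 and 1.91 against at most 1.52). The same held for Npy (1.05 and -0.09 against at most -0.18), while the other markers still overlapped. Sham 5B stood apart in the synthesis genes, which are the reference of this scale, so these separations without it are a description and not a test. The share of all genes tested that separates in this way was not computed.

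Outside the 9 genes, the 2 most like the synthesis genes, by Pearson's r over the 9 libraries with the mean of the 3 scaled genes, were ENSRNOG00000014296 (r = 0.976) and ENSRNOG00000026962 (r = 0.967), which no table used here pairs with a symbol. The first was at 14.7 FPKM in sham 5B and between 1.19 and 3.80 FPKM in the other libraries. The second was at 23.1 FPKM in sham 5B and between 6.69 and 12.1 FPKM elsewhere. Without sham 5B the 2 values of r were 0.878 and 0.833. Among the markers r was highest for Calb1 (0.599), and 779 genes were at least as alike. Npy (0.499) and Sst (0.427) followed, and Pvalb (-0.085), Cck (-0.179) and Vip (-0.355) were below 0. Without sham 5B the first 3 were at 0.18, 0.226 and 0.201, so that their likeness rested on that library. Markers of other neurons, glia or blood cells were not analysed here, so their part in the values of sham 5B, PN 3A and PN 6A was not tested.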

How the data were processed

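RNA sequencing of rat brain tissue gave 1 table of all 9 libraries. Its values are FPKM, as deposited by the authors. The submitters' processing notes name StringTie 1.3.1, HISAT2, Bowtie2 2.2.8 and fastp 0.18.0, with no order. The genome build is not given in the sources used here, and the same holds for the annotation and the use of strand. FPKM keeps no read numbers, so the depth of each library is unknown and no counting interval can be given; the sums of FPKM over genes ran from 387893 to 445693.

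Genes with at least 1 FPKM in at least 3 libraries (15051 of 32883) were tested with limma 3.58.1 in R 4.3.3 on log2(FPKM + 1), with a mean-variance trend, all 3 groups in 1 fit, two-sided, and Benjamini-Hochberg adjustment over all genes tested. Differences on this scale understate those of low genes. Exact permutations were enumerated with numpy 2.4.6, with ranks and adjustment by scipy 1.17.1, under Python 3.11.15. The test across genes was run on simulated data with independent noise for each gene, so effects shared by the genes of a library were not covered. Alternatives were the pseudocount, the minimum, the scaling, library weights, covariates and left-out libraries. The rule for the genes in the text was to describe all 9 and, of genes like them, at most 2 IDs without a symbol.

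The 9 genes and the other gene lists were chosen with earlier results of these data known. The table gives Ensembl IDs alone, and the RefSeq table used (GRCr8) matched 0 of them, so names of the 9 come from the list of IDs, and lists of GABA receptors, transcription factors and markers of other cell types were not analysed here. Gad1 and Vip are among 4792 genes whose values have more than 6 decimals, for an unstated reason.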

Additional observations from a re-analysis of the deposited data

How the results depend on the processing

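In every setting tried, 0 of the 9 genes passed the adjusted threshold in any comparison (limma; smallest adjusted p = 0.159 for Sst, MCAO against sham, without PN 3A). For MCAO against sham none of 108 values changed sign, for PN against MCAO 9 of 117 and for PN against sham 18 of 117, not counting settings that leave the estimate as it is. Over all genes tested, 377 passed in PN against MCAO with array weights, where 1 passed without them. The weights were 6.19 for PN 7A, 0.664 for PN 6A and 0.345 for PN 3A, so weighted PN values are mostly those of PN 7A. The cause of the higher count was not tested. In PN against MCAO, Slc32a1 was at 0.062 with array weights and 0.17 with the sample code's letter in the model. In PN against sham, Calb1 was at -0.0171 with equal sums, -0.0256 with median-of-ratios scaling, -0.55 with array weights and -0.15 with the letter. There, Vip was at 0.34 with array weights and Pvalb at 0.12 with the letter. Without sham 5B and PN 3A together, a setting chosen after seeing the data, Slc32a1 was at 0.0926 and Pvalb at -0.11 in PN against MCAO, and Gad2 at 0.06, Slc32a1 at 0.06 and Cck at -0.43 in PN against sham. With 1 library left out at a time, PN against MCAO ran from -0.13 to 0.31 for Gad2, -0.22 to 0.0926 for Slc32a1 and -0.11 to 1.22 for Pvalb. PN against sham ran from -0.78 to 0.55 for Pvalb, -0.39 to 0.42 for Calb1, -0.46 to 0.46 for Vip and -0.23 to 0.64 for Cck. Of the 6 markers relative to the synthesis genes, the groups were apart for 0 to 2 in MCAO against sham (2 without sham 5B), 0 to 2 in PN against MCAO (2 without PN 6A) and 0 to 1 in PN against sham. The share of all genes tested that is apart on this relative scale was not computed, so these counts cannot be judged against it. Same-numbered MCAO and PN libraries did not deviate together (correlations of 0.064, -0.402 and -0.16), and their numbers were not taken to pair them. These 3 values, with no differently numbered pairs beside them, cannot exclude a pairing. With a replicate block 0 of the 9 genes passed (limma, smallest adjusted p = 0.531). The 3 libraries a group and an unknown depth limit all of these values.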
